A study of Mus musculus with 12 samples.

Results

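The integrated stress response and the unfolded protein response were followed through 10 genes, Atf4, Ddit3, Asns, Trib3, Chac1, Sesn2, Atf3, Hspa5, Herpud1 and Calr, on 12 Affymetrix arrays of mouse bone marrow B cells. The genes were found by their symbols in the probe annotation, and 21 of the 45101 probe sets carry them. Each gene is given by its probe set of highest mean log2 intensity. They are 10 of 18194 genes, and 7 of them were among the 10287 genes tested, which lay above a log2 intensity of 4 (the floor) on at least 3 of the 12 arrays. Trib3, Chac1 and Atf3 lay below the floor on every array and were not tested.

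The cells had been selected from marrow on magnetic beads that bind B220, also called CD45R, which B-lineage cells carry on their surface. They came from littermates aged 4 to 6 weeks with a background of 94% C57BL/6. There were 4 groups of 3 arrays, which the labels call biological replicates. The first group carried both transgenes (Eμ-Myc;Eµ-TTP-1, precancerous, here double transgenic), the second Eμ-Myc alone (precancerous, here Myc), the third Eµ-TTP-1 alone (here TTP), and the fourth was wild type with neither. Eµ is the enhancer of the immunoglobulin heavy chain gene and drives a transgene in B-lineage cells. Myc is a growth-promoting transcription factor, and TTP, encoded by Zfp36, binds mRNAs and speeds their decay. The comparisons ask how Myc alters these genes and whether TTP alters them with or without Myc.

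In the integrated stress response, kinases that sense amino acid shortage, misfolded protein in the endoplasmic reticulum, viral RNA or lack of heme phosphorylate the translation factor eIF2α, which lowers translation in general and lets the mRNA of the transcription factor ATF4 be translated. ATF4 then raises genes of amino acid supply, and with CHOP, the product of Ddit3, genes tied to cell death. The unfolded protein response shares the kinase PERK with it and has further arms through IRE1 with XBP1 and through ATF6, which raise chaperones and the degradation machinery of the endoplasmic reticulum. It is best known in the B lineage for its part in antibody-secreting cells. ATF4 is controlled to a large extent by translation, which arrays do not measure.

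The arrays carried signals that their labels do not explain. Myc log2 intensity was 11.82 to 13.37 on the double-transgenic arrays and 12.99 to 13.92 on the Myc arrays. TTP 1 and TTP 2 gave 10.05 and 10.39, whereas the array labelled TTP 3 gave 13.47. In the same way wild type 1 and wild type 2 gave 9.65 and 9.68, whereas the array labelled wild type 3 gave 12.65. The female transcript Xist and a Y-linked gene exceeded the floor together on 4 arrays, each of them numbered 3. Zfp36 was 7.47 to 9.18 on the double-transgenic arrays, 9.28 to 9.997 on the Myc, 9.78 to 9.89 on the TTP and 9.80 to 10.70 on the wild-type arrays, and where its probes lie relative to the transgene is not given, so it does not check the TTP label. All 8 measured pan-B markers were above the floor on every array. Granulocyte markers were present too, with summed intensities over 12 genes of 106047 to 159809 on double-transgenic, 9292 to 213251 on Myc, 179495 to 357154 on TTP and 227376 to 316157 on wild-type arrays.

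In Myc cells, Ddit3 and Herpud1 fell relative to the arrays labelled wild type, and none of the 7 tested members rose. Ddit3 was 2.66-fold and Herpud1 2.07-fold lower. The chaperone genes Hspa5 and Calr were 1.23-fold and 1.25-fold lower and did not pass the threshold, an adjusted p under 0.05 by limma with Benjamini-Hochberg adjustment over all genes tested. Atf4 differed by 0.04 ± 0.11 (SE) on the log2 scale. Of the 7 tested members 2 were called, both lower, against 11% of all tested genes (1135, of them 48 higher and 1087 lower, or 10.6%). In 4 members every Myc array lay below every wild-type array (Ddit3, Herpud1, Hspa5 and Calr), against 41.3% of all genes with that order. The median of the 7 members was -0.32 and that of all tested genes -0.21 on the log2 scale.

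Markers of B cells and of other cells were lower on Myc arrays as well. The 8 pan-B markers summed to 64952 to 95176 on Myc arrays and 104440 to 148773 on wild-type arrays. The 5 plasma cell markers summed to 3062 to 5379 on Myc arrays and 6919 to 10094 on wild-type arrays, with 2 of 5 at or below the floor on every Myc array and 1 or 2 of 5 on the wild-type arrays. Erythroid markers summed to 131 to 2410 on Myc arrays and 2514 to 5394 on wild-type arrays. Monocyte markers summed to 1684 to 17576 on Myc arrays and 21390 to 36127 on wild-type arrays. T and NK cell markers summed to 62 to 518 on Myc arrays and 831 to 1946 on wild-type arrays, and markers of plasmacytoid dendritic cells to 2471 to 4925 on Myc arrays and 6614 to 10392 on wild-type arrays. Each of these sums, granulocyte markers included, was lower on every Myc array than on every wild-type array. The part of these cells in the differences of the members was not tested, and in RNA from a mixed sample fewer cells of a type and less RNA per cell cannot be told apart. The plot of member intensities shows the values by array.

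**Figure D1:**
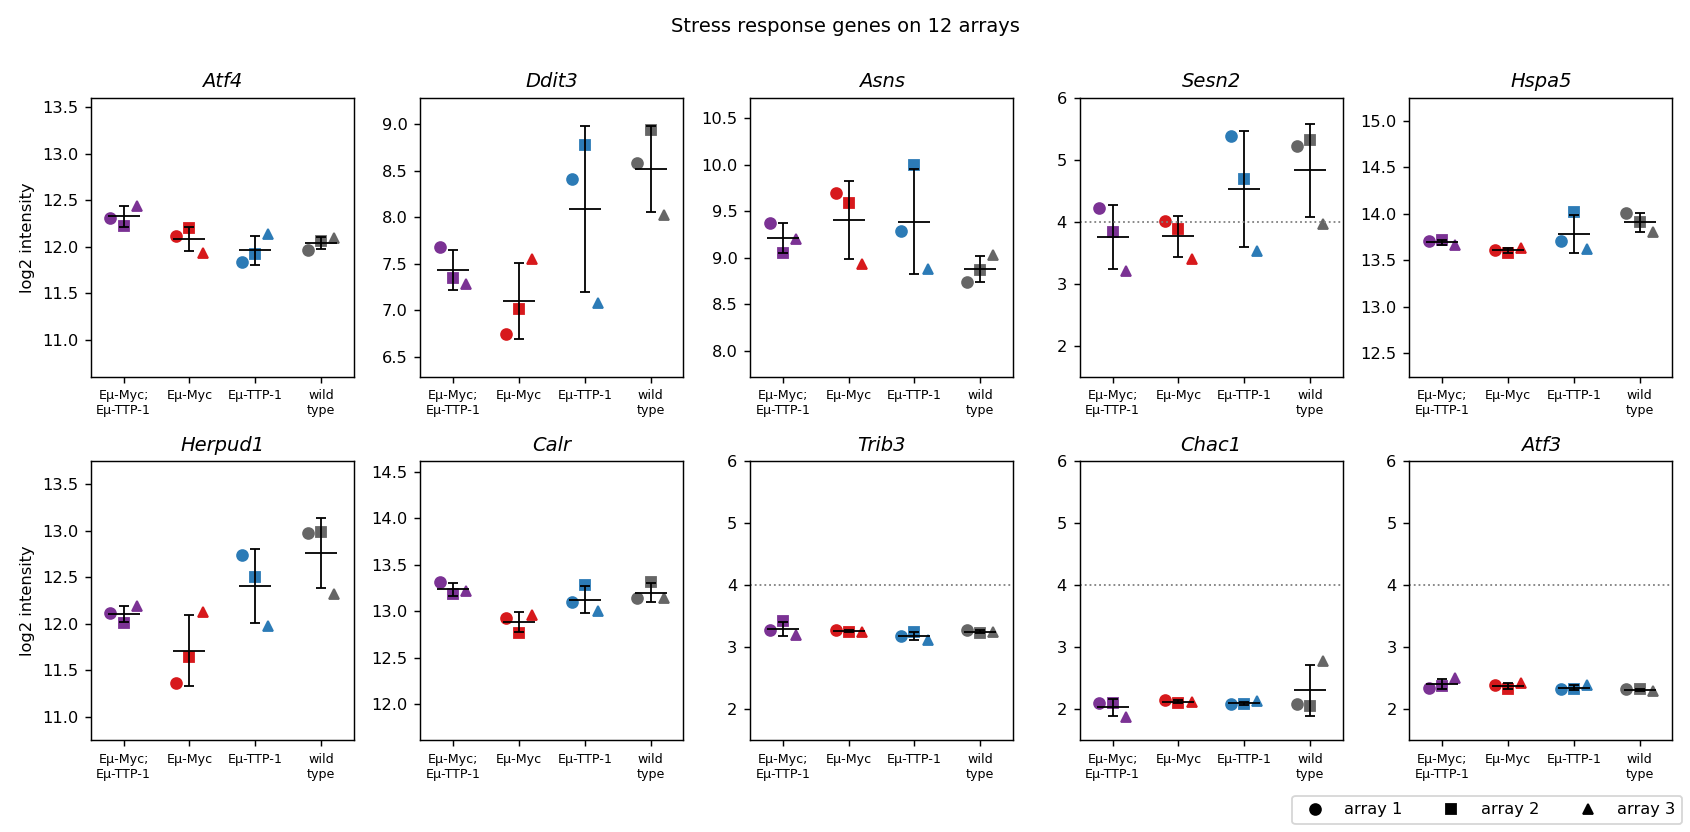
Log2 intensity (vertical axis, a different range in each panel) of the 10 genes on 12 arrays, by group; symbols give the array number, horizontal lines the mean and bars the SD (n = 3), and the dotted line the floor of 4. Ddit3 and Herpud1 lay lower on the 3 Myc arrays than on the 3 wild-type arrays, and Trib3, Chac1 and Atf3 stayed below the floor throughout.

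The promoters of the 2 members called and of the 2 chaperone members are shown with their matches to the motifs searched, where they had any. Each runs from 250 bases before to 50 after the start of the gene, 5′ to 3′ on the gene's strand, from RefSeq on build GRCm38.p6, and all 10 members had an entry. Capitals mark matches to the motifs searched, on either strand.
Ddit3, chr10:127290543-127290842, plus strand: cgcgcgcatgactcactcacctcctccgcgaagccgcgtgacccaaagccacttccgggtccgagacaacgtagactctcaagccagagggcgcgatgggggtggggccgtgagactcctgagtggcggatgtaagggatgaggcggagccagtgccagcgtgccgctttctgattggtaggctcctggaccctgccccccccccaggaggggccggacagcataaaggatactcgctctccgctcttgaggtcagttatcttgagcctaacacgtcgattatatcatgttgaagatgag
Herpud1, chr8:94386179-94386478, plus strand: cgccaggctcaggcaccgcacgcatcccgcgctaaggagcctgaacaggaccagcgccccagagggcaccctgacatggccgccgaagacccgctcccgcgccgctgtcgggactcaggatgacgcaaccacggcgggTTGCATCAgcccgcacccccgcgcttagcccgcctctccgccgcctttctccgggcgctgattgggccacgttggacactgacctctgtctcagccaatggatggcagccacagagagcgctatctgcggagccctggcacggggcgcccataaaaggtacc
Hspa5, chr2:34771840-34772139, plus strand: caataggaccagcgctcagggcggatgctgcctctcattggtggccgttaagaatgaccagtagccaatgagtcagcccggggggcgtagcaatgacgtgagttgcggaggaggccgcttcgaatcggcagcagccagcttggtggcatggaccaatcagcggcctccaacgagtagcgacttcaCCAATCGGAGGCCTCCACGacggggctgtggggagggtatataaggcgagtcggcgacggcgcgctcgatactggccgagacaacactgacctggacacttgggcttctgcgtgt
Calr, chr8:84846882-84847181, minus strand: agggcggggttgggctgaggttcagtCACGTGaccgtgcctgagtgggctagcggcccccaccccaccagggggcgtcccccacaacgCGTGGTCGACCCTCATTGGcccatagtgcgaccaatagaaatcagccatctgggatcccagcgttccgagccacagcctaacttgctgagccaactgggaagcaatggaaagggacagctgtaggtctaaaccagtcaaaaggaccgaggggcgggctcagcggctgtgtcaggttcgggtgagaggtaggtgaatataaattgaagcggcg

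The endoplasmic reticulum stress element, CCAAT and CCACG with 9 bases between them, stood in 0.12% of 32851 promoters. Among the members it matched Hspa5 at positions -65 to -47, with the start base as 0, and Calr on the opposite strand at -162 to -144. The site of C/EBP and ATF factors was searched as TGATGNAA, present in 3.97% of promoters, and matched 5 members. These were Herpud1, at -112 to -105 on the opposite strand, and Asns, Trib3, Chac1 and Atf3. The capitals at the start of the Calr window are a CACGTG E-box, found in 7.15% of promoters and in no other member. The letters TGACGTCA (1.79% of promoters) and TGACGTGG (0.68%) were in none of the 10 windows, and Ddit3 matched none of the 5 motifs. Both members that matched the first element lay among the 4 whose Myc arrays were all below wild type, an order found in 41.3% of all tested genes. So did Herpud1 and Ddit3, which had no match to those exact letters. Neither Hspa5 nor Calr was called in Myc over wild type. Their other probe sets gave log2 differences of 0.12 and 0.10 for Hspa5 and -0.07 and -0.13 for Calr. Other forms of the element were not searched, so a window without a match may still hold one. A match is a run of letters and not a measured site.

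Atf4 encodes the transcription factor at the centre of the integrated stress response. Its log2 intensity was 12.31, 12.22 and 12.44 on double-transgenic arrays, 12.11, 12.20 and 11.94 on Myc arrays, 11.83, 11.92 and 12.14 on TTP arrays, and 11.97, 12.06 and 12.09 on wild-type arrays. The double-transgenic arrays were the highest, above every Myc, TTP and wild-type array, while those other groups overlapped. The difference was 0.36 ± 0.11 for double transgenic over TTP (adjusted p = 0.0641 by limma; 30.6% of all genes did not overlap and were higher there) and 0.24 ± 0.11 for double transgenic over Myc (adjusted p = 0.264). Neither passed. With TTP 3 and wild type 3 left out the first became 0.45 ± 0.11 (adjusted p = 0.0104), beside 42.9% of all genes called. With every array set to a common median the second was -0.02, and a second probe set gave -0.27 ± 0.20 for the first and -0.20 ± 0.20 for the second, opposite in sign.

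Ddit3 encodes CHOP, a transcription factor induced by ATF4 that promotes death under lasting stress. Intensities of Ddit3 on the log2 scale were 7.68, 7.35 and 7.28 on double-transgenic arrays, 6.74, 7.01 and 7.55 on Myc arrays, 8.41, 8.77 and 7.08 on TTP arrays, and 8.59, 8.94 and 8.02 on wild-type arrays. Every Myc array was below every wild-type array, and TTP 3 was the one array without the Myc label that lay among the Myc-labelled ones. Myc over wild type was -1.41 ± 0.41 (adjusted p = 0.04998 by limma, 95% interval -2.31 to -0.51). The second Ddit3 probe set gave -1.51 ± 0.50, so both sets pointed the same way.

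The call for Ddit3 sat at the threshold, as did every call in Myc over wild type. The smallest adjusted p of all tested genes there was 0.0479 by limma. With wild type 3 and TTP 3 left out the difference was -1.66 ± 0.27 (adjusted p = 0.00217), where 34.3% of all genes were called lower. With a common median for all arrays it was -1.15 ± 0.34 (adjusted p = 0.0631). Over 23 alternatives, each at an adjusted p under 0.05, the call held in 8, and the difference stayed negative, between -1.88 and -0.998. Over the 6 arrays labelled with Eμ-Myc and the 6 labelled without it, Ddit3 averaged 7.27 ± 0.35 and 8.30 ± 0.68 (SD, n = 6 each). The 6 without the label include TTP 3 and wild type 3, whose Myc signal went against it. The Ddit3 difference of -1.03 ± 0.29 passed (adjusted p = 0.0199 by limma; exact two-sided permutation p = 0.013, one of 7 members computed, smallest possible p 0.0022). In that comparison 43.2% of all tested genes were called, 24.6% lower and 18.7% higher, so a call there is common. Without TTP 3 and wild type 3 the difference was -1.41 ± 0.19 (adjusted p = 0.000296), where 61.1% of all genes were called.

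Sesn2 encodes sestrin 2, a stress-induced regulator of the growth kinase mTORC1, and it lay close to the floor. On the log2 scale Sesn2 had 4.23, 3.83 and 3.20 on double-transgenic arrays, 4.01, 3.89 and 3.39 on Myc arrays, 5.39, 4.68 and 3.52 on TTP arrays, and 5.22, 5.31 and 3.97 on wild-type arrays. TTP 3 and wild type 3 were below the floor, as were 4 of the 6 Myc-labelled arrays, so the groups overlapped. Since the Myc mean of 3.76 was below the floor, Myc over wild type was at least 1.78-fold lower. It did not pass (adjusted p = 0.131 by limma), and passed with wild type 3 and TTP 3 left out (at least 2.40-fold lower, adjusted p = 0.00753). Those were the arrays without the Myc label that lay below the floor, and 48.3% of all genes were called in that setting. The other Sesn2 probe set had nearly the same mean over all arrays and was at least 1.21-fold lower. Without wild type 3 and TTP 3 that set was at least 1.35-fold lower.

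Asns encodes asparagine synthetase, a classical ATF4 target of amino acid supply. Log2 intensities of Asns were 9.37, 9.05 and 9.20 on double-transgenic arrays, 9.70, 9.58 and 8.93 on Myc arrays, 9.29, 9.997 and 8.88 on TTP arrays, and 8.74, 8.87 and 9.02 on wild-type arrays. The 3 wild-type arrays were close together, and the Myc and TTP groups each had 2 arrays above them and 1 among them. Myc over wild type was 0.53 ± 0.28 (adjusted p = 0.171 by limma) and TTP over wild type 0.51 ± 0.28 (adjusted p = 1.00). With the other probe set they were 0.73 ± 0.38 and 0.06 ± 0.38. These comparisons share the wild-type arrays. The first passed in 1 of 23 alternatives, without all 4 arrays numbered 3, at 0.84 ± 0.23 (adjusted p = 0.0127), where 54.7% of all genes were called.

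The remaining ATF4 and stress genes were at the background of the arrays. Trib3, a pseudokinase that restrains ATF4 and CHOP, ranged from 3.12 to 3.43. Chac1, which degrades glutathione, ranged from 1.88 to 2.79, and Atf3, a stress-induced repressor, from 2.30 to 2.51. These values have no order below the floor, so no fold is given, and a low mRNA could be present without being seen. The second Trib3 probe set also stayed below the floor on all 12 arrays.

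Hspa5 encodes BiP, the main HSP70 chaperone of the endoplasmic reticulum and the partner that holds its stress sensors inactive. Its log2 intensity was 13.70, 13.71 and 13.66 on double-transgenic arrays, 13.60, 13.57 and 13.63 on Myc arrays, 13.71, 14.02 and 13.62 on TTP arrays, and 14.01, 13.91 and 13.80 on wild-type arrays. Every wild-type array was above every Myc array and every double-transgenic array, by small steps. Myc over wild type was -0.30 ± 0.10 (adjusted p = 0.0657 by limma), and -0.36 ± 0.10 without wild type 3 and TTP 3 (adjusted p = 0.0148). In the latter setting 34.3% of all genes were called lower. The other probe sets of the gene gave 0.12 ± 0.14 and 0.10 ± 0.19, so the sets disagree in sign, and with a common median the difference was -0.04 ± 0.11.

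Calr encodes calreticulin, a calcium-binding chaperone for glycoproteins. Calr had log2 intensities of 13.31, 13.18 and 13.22 on double-transgenic arrays, 12.93, 12.76 and 12.96 on Myc arrays, 13.10, 13.28 and 12.997 on TTP arrays, and 13.14, 13.32 and 13.14 on wild-type arrays. The 3 Myc arrays were the 3 lowest of the 12, and the other groups overlapped. Myc over wild type was -0.32 ± 0.10 (adjusted p = 0.0568 by limma), but -0.07 ± 0.10 and -0.13 ± 0.11 with the other probe sets. Double transgenic over Myc was 0.35 ± 0.10 (adjusted p = 0.178), with the same Myc arrays in it. Myc over wild type passed without wild type 3 and TTP 3 (-0.35 ± 0.10, adjusted p = 0.0211), where 34.3% of all genes were called lower. It was -0.06 ± 0.10 with a common median.

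Herpud1 encodes a membrane protein that helps assemble the complex for degradation of misfolded proteins. Its log2 intensity was 12.12, 12.01 and 12.19 on double-transgenic arrays, 11.37, 11.65 and 12.13 on Myc arrays, 12.75, 12.50 and 11.97 on TTP arrays, and 12.98, 12.98 and 12.32 on wild-type arrays. Every wild-type array was above every array with the Myc label, while TTP 3 lay within the range of the Myc arrays. Myc over wild type was -1.05 ± 0.25 (adjusted p = 0.0479 by limma, 95% interval -1.59 to -0.50), and -0.86 ± 0.20 with the other probe set.

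The call for Herpud1 in Myc over wild type also held in 8 of 23 alternatives at an adjusted p under 0.05, with differences between -1.48 and -0.79. Without wild type 3 and TTP 3 it was -1.27 ± 0.19 (adjusted p = 0.00174), where 34.3% of all genes were called lower. With a common median it was -0.79 ± 0.23 (adjusted p = 0.0631). Over the 6 arrays with and the 6 without the Myc label, TTP 3 and wild type 3 again among those without, Herpud1 averaged 11.91 ± 0.33 and 12.58 ± 0.40 (SD, n = 6 each). The difference of -0.68 ± 0.17 passed (adjusted p = 0.0171 by limma; exact two-sided permutation p = 0.0152), as did 43.2% of all tested genes by limma. It was -0.89 ± 0.13 without TTP 3 and wild type 3, where 61.1% of all genes were called. With the other probe set it was -0.44 ± 0.14 (adjusted p = 0.0367 by limma over all probe sets). For Herpud1 the difference over 6 against 6 arrays stayed past the threshold of 0.05 in 22 of 22 alternatives, and that of Ddit3 in 19 of 22. The 3 that ended the Ddit3 call left out Myc 1, TTP 1 or wild type 2, with adjusted p from 0.0521 to 0.0538. The stricter threshold of 0.01 is not among the 22, and 0 of the 10287 tested genes passed it.

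The Sesn2 points in the plots of differences, and the Cth point in the plot of pathway lists, are fitted values that rest in part on arrays below the floor.

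**Figure D2:**
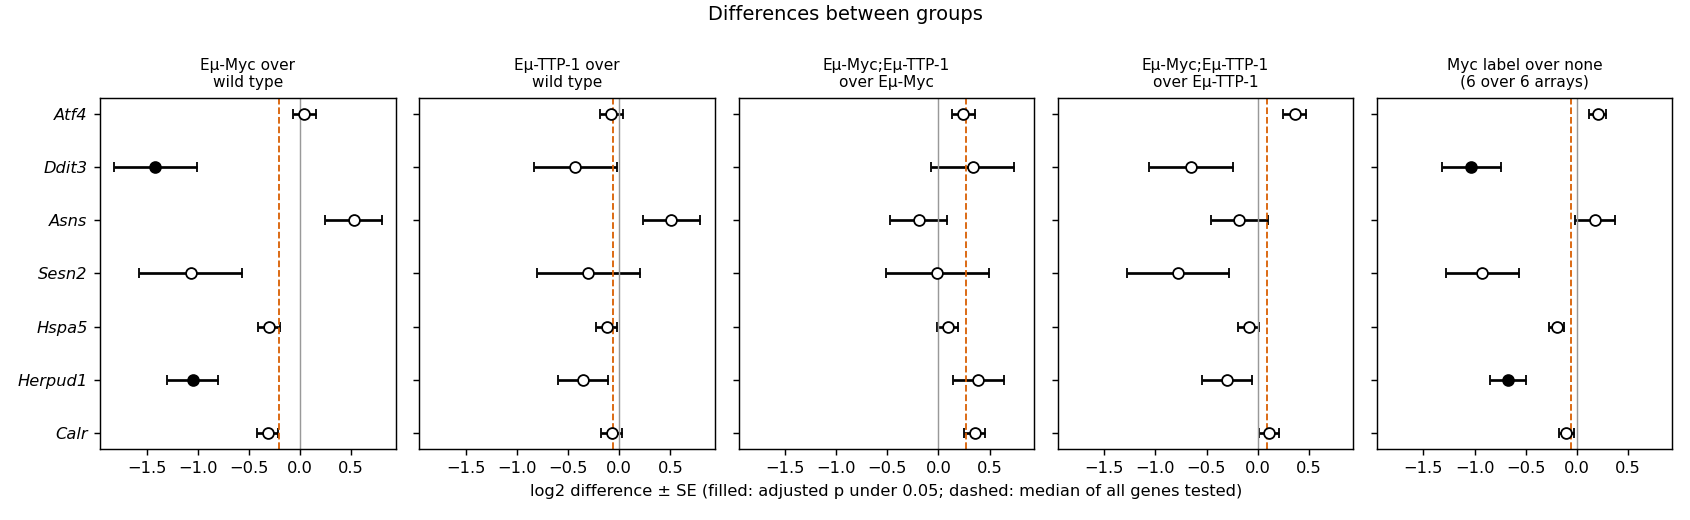
Log2 difference ± SE (horizontal axis) of the 7 tested members in 4 comparisons and in the 6 arrays with against the 6 without the Myc label; filled points passed an adjusted p under 0.05 and the dashed line is the median of all tested genes. Ddit3 and Herpud1 are filled in the first and last panels, at -1.41 and -1.05 and at -1.03 and -0.68.

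The TTP transgene alone was compared with wild type, and no member passed. Limma called 0 of the 10287 genes, or 0%, and 149 had an unadjusted p under 0.05 (1.45%), while an unmoderated linear model called 0 as well. Ddit3 was -0.43 ± 0.41 and Herpud1 -0.36 ± 0.25, and the TTP and wild-type arrays overlapped for all 7 members, against 4.25% of all genes that did not overlap. The 95% interval of Ddit3, -1.33 to 0.47, leaves room for a change in either direction. The array labelled TTP 3 was the lowest of its group for Ddit3, Herpud1, Hspa5, Calr, Asns and Sesn2.

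Double-transgenic over Myc arrays asks what TTP does beside Myc, and no member passed there either. Limma called 0 genes (0%), 1966 had an unadjusted p under 0.05 (19.1%), and the unmoderated model called 16. Differences were positive in 12 of 12 granulocyte (median 2.17 on the log2 scale) and 5 of 5 erythroid markers (median 1.85), with 0 of them called. Calr and Herpud1 were 0.35 ± 0.10 and 0.39 ± 0.25 higher on the log2 scale and Ddit3 0.34 ± 0.41. Atf4, Calr and Hspa5 did not overlap and were higher, against 32.3% of all genes, and the median of all genes was itself 0.27. All 3 Calr probe sets gave 0.32 to 0.35, whereas the other Hspa5 sets gave -0.23 ± 0.14 and 0.07 ± 0.19. Under a common median Calr was 0.09 ± 0.10 and Herpud1 0.13 ± 0.23. Without the 4 arrays numbered 3, Calr (0.40 ± 0.12, adjusted p = 0.0481) and Herpud1 (0.56 ± 0.13, adjusted p = 0.024) passed, 2 of 7 members, beside 14.7% of all genes called and 14.1% called higher.

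Double-transgenic over TTP arrays asks what Myc does beside TTP. Limma called 0 genes (0%), the unmoderated model called 5, and 3707 had an unadjusted p under 0.05 (36%). Differences were negative in 12 of 12 granulocyte markers (median -1.88), 5 of 5 erythroid (median -2.11) and 8 of 8 pan-B markers (median -0.50), with 0 of them called. The part of these cells in both double-transgenic comparisons was not tested. Ddit3 was -0.65 ± 0.41, Sesn2 at least 1.37-fold lower and Herpud1 -0.30 ± 0.25. The other Sesn2 probe set, whose mean was above the floor in both groups, gave -0.21 ± 0.33, smaller than that bound, and the other Herpud1 set -0.01 ± 0.20. With TTP 3 and wild type 3 left out, Atf4 passed upward, and Ddit3 (-1.15 ± 0.27, adjusted p = 0.00869), Sesn2 (at least 1.94-fold, adjusted p = 0.0169) and Herpud1 (-0.52 ± 0.19, adjusted p = 0.0497) passed downward. In that setting 42.9% of all genes were called (21% higher, 21.9% lower), so 4 of 7 members is near the background. That setting leaves out arrays picked for their Myc signal, with earlier results known.

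Whether TTP acted differently with and without Myc was tested as an interaction, (double transgenic minus Myc) minus (TTP minus wild type). Limma called 0 genes (0%), 1351 had an unadjusted p under 0.05 (13.1%), and the unmoderated model called 0. Among the members the unadjusted p was lowest for Calr, at 0.43 ± 0.14 (adjusted p = 0.358), followed by Herpud1 at 0.75 ± 0.35 (adjusted p = 0.388). The median of all genes was 0.34. Without the 4 arrays numbered 3 Herpud1 passed (0.92 ± 0.18, adjusted p = 0.0388), as did 2.28% of all genes. The other 2 Calr probe sets gave 0.26 ± 0.14 and 0.27 ± 0.15.

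**Figure D3:**
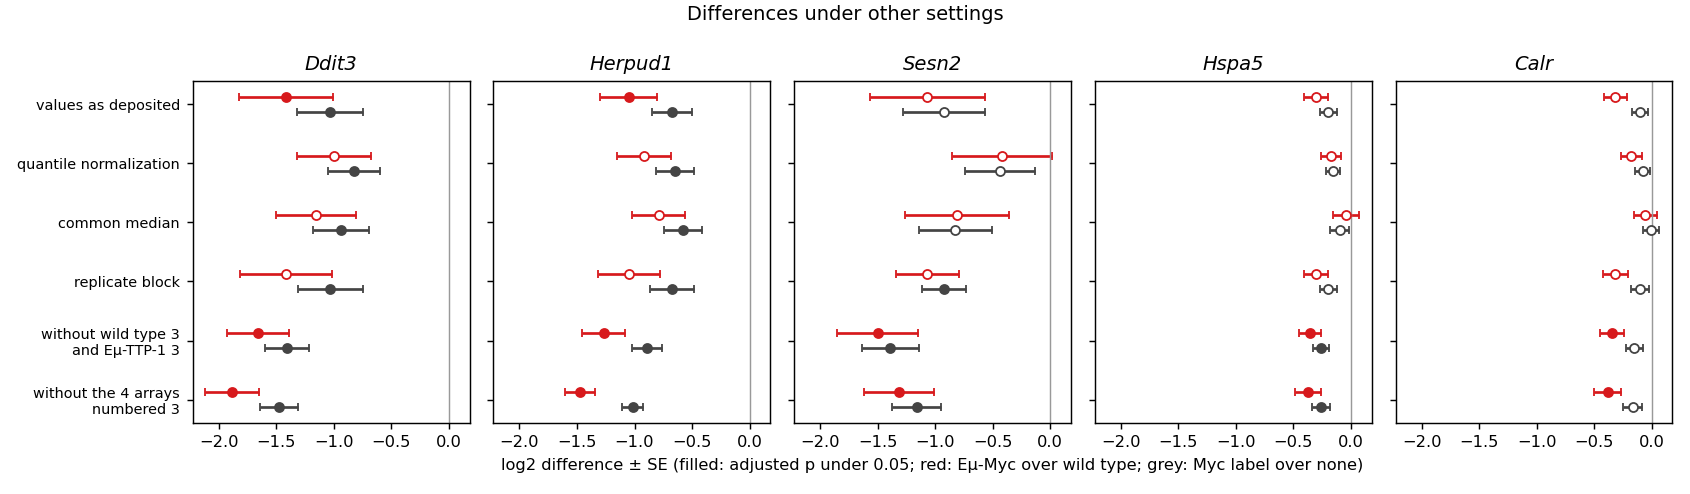
Log2 difference ± SE (horizontal axis) of 5 members under the deposited values and 5 other settings, in red for Myc over wild type and in grey for the 6 arrays with against the 6 without the Myc label; filled points passed an adjusted p under 0.05. Ddit3 and Herpud1 stayed below 0 in every setting drawn, and under quantile normalization, a common median and the replicate block the red points are open.

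The other genes of these pathways were read from lists chosen with earlier results of these data known, and are described by counts and medians. Every call below in Myc over wild type was lost under quantile normalization, a common median and the replicate block, where 0 of all tested genes were called. Among 7 tested genes that set eIF2α phosphorylation, Eif2ak3, which encodes PERK, fell in Myc over wild type (-1.04 ± 0.27, adjusted p = 0.0479 by limma), and none rose. Eif2ak3 had log2 intensities of 10.77, 10.87 and 11.31 on Myc arrays and 12.07, 12.30 and 11.72 on wild-type arrays. The ranges did not overlap, which held for 41.3% of all genes in that order, and 1 of 7 called lower is near the 10.6% of all genes. Eif2ak1, the heme-regulated kinase, was -0.29 ± 0.17.

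Of 8 tested sensors and factors of the IRE1 and ATF6 arms, Xbp1 and Ern1 fell and none rose in Myc over wild type. Xbp1, the transcription factor spliced by IRE1, was 10.48, 10.61 and 11.61 on Myc arrays and 12.10, 12.33 and 11.73 on wild-type arrays (-1.16 ± 0.31, adjusted p = 0.0479 by limma). Ern1, which encodes IRE1α itself, was 7.70, 7.87 and 8.39 on Myc arrays and 9.69, 9.81 and 8.88 on wild-type arrays (-1.47 ± 0.41, adjusted p = 0.0479). For both genes all 3 wild-type arrays lay above all 3 Myc arrays, and Myc 3 lay nearest to them; 41.3% of all genes had that order and 10.6% were called lower.

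Degradation genes of the endoplasmic reticulum had negative differences in Myc over wild type, 11 of 11 with the deposited values and 9 of 11 with a common median. Of all 10287 tested genes 6733 were negative and 3554 positive with the deposited values. Of 11 tested, 2 fell, Edem1 (-1.19 ± 0.28), which hands misfolded glycoproteins to the degradation machinery, and Syvn1 (-0.57 ± 0.13), which encodes the ubiquitin ligase HRD1, both at an adjusted p of 0.0479 by limma. With a common median they were -0.93 ± 0.24 and -0.31 ± 0.10, with adjusted p of 0.0631 and 0.0647. The median of the list was -0.43, beside -0.21 for all genes, and 10 of 11 had all Myc arrays below all wild-type arrays, beside 41.3% of all genes. Chaperones and foldases had mostly positive differences, 12 of 15 with the deposited values, with a median of 0.15. With a common median 14 of 15 were positive, with a median of 0.41 beside 0.05 for all genes. The only one called with the deposited values was Ero1b, an oxidase for disulfide bonds, which fell (-0.97 ± 0.27, adjusted p = 0.0489 by limma). Creld2, a stress-induced protein of the endoplasmic reticulum, was 0.07 ± 0.17. In this comparison 0 genes of the 4 lists named so far rose, beside 0.467% of all genes.

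Reported targets of ATF4 other than the members had mostly positive differences in Myc over wild type. There 15 of 22 tested were positive, with a median of 0.25, beside 3554 positive of all 10287 tested genes. With a common median 20 of 22 were positive, with a median of 0.51 beside 0.05 for all genes. With the deposited values only Cebpg, a partner of ATF4 in binding DNA, passed, downward (-0.42 ± 0.12, adjusted p = 0.04998 by limma). With a common median Cebpg was -0.16 ± 0.09 (adjusted p = 0.202). Over the 6 arrays with and the 6 without the Myc label 14 of 22 rose and 1 fell, beside 18.7% and 24.6% of all genes, with a median of 0.45 against -0.06. Cth, Shmt2, Mthfd2, Phgdh, Slc7a5, Cebpb, Atf6b, Mbtps2, Creb3l2, Ppp1r15a, Hsp90b1, Pdia4 and Sdf2l1 were singled out after their values were seen. Shmt2 (1.501 ± 0.40, adjusted p = 0.0181) and Mthfd2 (0.87 ± 0.22, adjusted p = 0.0169), enzymes of mitochondrial one-carbon metabolism, Phgdh (0.92 ± 0.24, adjusted p = 0.0177), which opens serine synthesis, and Slc7a5 (1.21 ± 0.29, adjusted p = 0.0169), a carrier of large neutral amino acids, rose by limma. The one that fell was Cebpb (-1.12 ± 0.35, adjusted p = 0.0281), a transcription factor also known from myeloid cells.

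Cth, which makes cysteine from cystathionine, was measured on some arrays only. Its log2 intensity was 7.39, 7.86 and 7.07 on double-transgenic arrays and 8.40, 8.60 and 7.10 on Myc arrays. It was 2.96, 2.75 and 7.07 on TTP arrays and 2.93, 3.31 and 6.92 on wild-type arrays. The 4 arrays below the floor were TTP 1 and 2 and wild type 1 and 2, and the arrays labelled TTP 3 and wild type 3 lay near those with the Myc label. With values below the floor set to it, Cth was at least 6.68-fold higher over 6 against 6 arrays (adjusted p = 0.0169 by limma). Aars, an alanyl-tRNA synthetase, had all double-transgenic arrays above all Myc arrays (0.57 ± 0.16, adjusted p = 0.178 by limma) and did not pass. That order held for 32.3% of all genes, and the median of all genes there was 0.27.

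In the comparison of 6 with 6 arrays, where 18.7% of all genes rose and 24.6% fell, the other lists split. Of the degradation list 5 of 11 fell and 0 rose. Of the sensors, 3 of 8 fell, Xbp1 (-0.93 ± 0.22), Ern1 (-1.03 ± 0.29) and Creb3l2 (-1.32 ± 0.41), a relative of ATF6, and 2 rose, Atf6b (0.55 ± 0.16) and Mbtps2 (0.49 ± 0.17), a protease that cuts ATF6. Of the chaperones and foldases 4 of 15 rose, among them Sdf2l1 (0.55 ± 0.16) and Pdia4 (0.45 ± 0.13), and 2 fell, Ero1b and Hsp90b1 (-0.28 ± 0.10), which encodes GRP94. Of the genes around eIF2α 2 of 7 fell, Eif2ak3 (-0.82 ± 0.19) and Ppp1r15a (-0.93 ± 0.27), which encodes GADD34, the subunit that brings a phosphatase to eIF2α. Hsp90b1 no longer passed under a common median (-0.18 ± 0.11), where 9 chaperones and foldases rose and 1 fell and 3 of 11 degradation genes fell. In that setting 25.9% of all genes rose and 24% fell, so the degradation genes fell about as often as all genes.

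The arrays labelled wild type 3 and TTP 3 bore strongly on these list counts. Without both, Myc over wild type called 48.3% of all tested genes, 14% higher and 34.3% lower, so calls are common there. Beside that stood 12 of 22 ATF4 targets higher and 2 lower, 6 of 15 chaperones and foldases higher and 1 lower, 7 of 11 degradation genes lower and 0 higher, 5 of 8 sensors lower and 1 higher, and 2 of 7 genes around eIF2α lower and 1 higher. Of the 7 tested members 5 were then lower (Ddit3, Herpud1, Sesn2, Hspa5 and Calr) and 0 higher. The all-gene median of Myc over wild type was -0.21 with the deposited values, 0.05 with a common median and 0.08 once the arrays were quantile normalized.

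**Figure D4:**
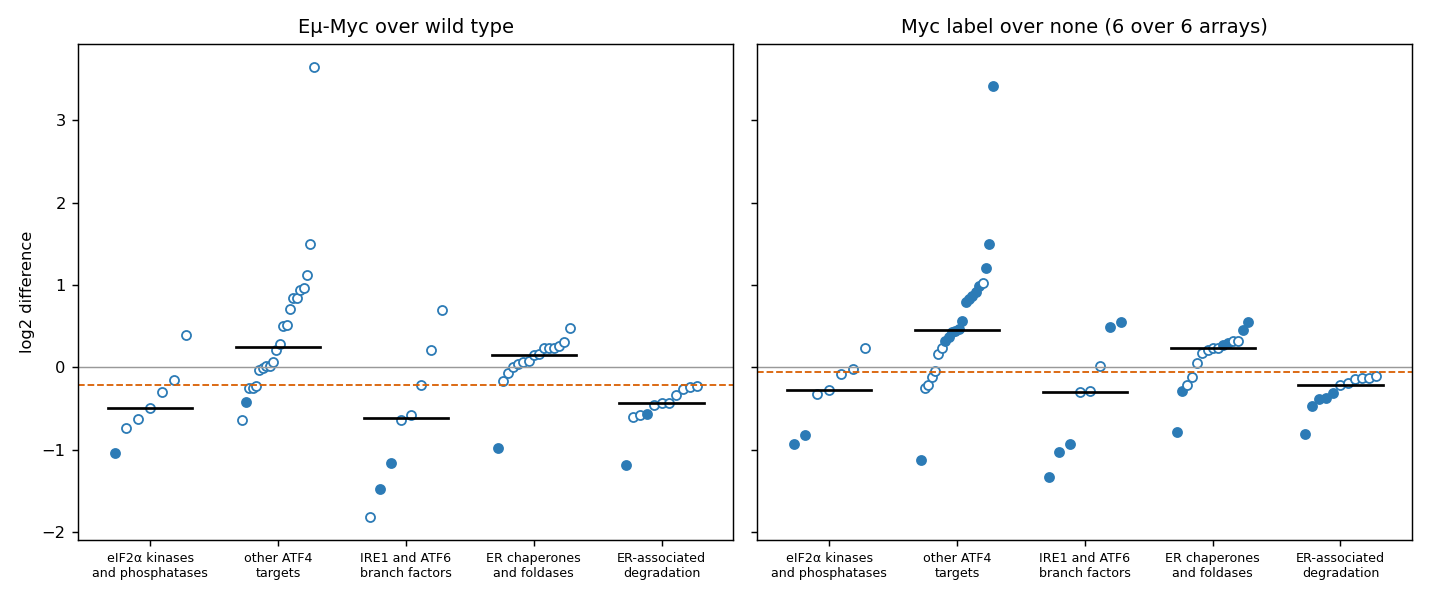
Log2 difference (vertical axis) of each tested gene of 5 pathway lists in Myc over wild type (left) and in the 6 arrays with against the 6 without the Myc label (right); filled points passed an adjusted p under 0.05, bars are list medians and the dashed line is the median of all tested genes. On the right, 14 ATF4 targets are filled above 0 and 5 degradation genes below it.

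The members did not vary as 1 block over the 12 arrays. Ddit3 and Herpud1 ran closest, with a Pearson r of 0.93, and Ddit3 and Hspa5 had 0.89, while Ddit3 and Atf4 had -0.57 and Ddit3 and Asns -0.14. All of these share the same 12 arrays and their group differences and are descriptions. The tested genes most like Ddit3 were Rgl2 (r = 0.995), Cmtm6 (r = 0.994) and Tcp11l2 (r = 0.993). Those most like Atf4 were Gigyf2 (r = 0.955), BC029722 (r = 0.948) and Cpsf1 (r = 0.947), and those most like Hspa5 were Sos1 (r = 0.962), Cxcl12 (r = 0.958) and Trappc8 (r = 0.956). Cxcl12 had 7.05, 6.75 and 6.92 on double-transgenic, 5.87, 5.63 and 7.07 on Myc, 7.47, 9.53 and 6.73 on TTP, and 8.90, 8.73 and 7.61 on wild-type arrays.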

How the data were processed

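RNA from B220-selected bone marrow cells was hybridised to 12 arrays, 3 in each of 4 groups. The deposited values are linear intensity per probe set, summarised by the authors with GCRMA per the submitters' processing notes; its version and any later step were not given in the sources used here. Here log2 of the deposited intensity was taken with no pseudocount. Of 45101 probe sets, 34958 have 1 gene symbol, 932 several and 9211 none; those with several were not named. Symbols were updated through Entrez numbers where they matched RefSeq (34754 probe sets).

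Genes with log2 above 4 on at least 3 of 12 arrays entered limma (version 3.58.1, R version 4.3.3; lmFit on 4 group means, eBayes with an intensity trend, two-sided, Benjamini-Hochberg over 10287 genes, 8 residual degrees of freedom); the pipeline was tested on simulated data. The number of arrays limits the precision. For a group mean below the floor, a fold is a bound with each array below the floor set to it. The difference of the 6 arrays labelled with Eμ-Myc against the 6 labelled without it is the mean of Myc over wild type and of double transgenic over TTP; it shares arrays with the other comparisons.

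The members, the pathway lists and the tests were chosen with earlier results of these data known. Named beside the members were the genes of each list called in Myc over wild type or double transgenic over Myc, at most 4 a list by p, and where fewer than 2 were called the 2 of smallest p, as well as the 3 genes of highest Pearson r with Atf4, Ddit3 and Hspa5. Some listed genes, among them Eif2s1, Pycr1 and Gdf15, and a few markers were not analysed here. Markers of erythroid cells, monocytes, T and NK cells and plasmacytoid dendritic cells were summed too. The alternatives were other filters, normalizations, models, probe sets, thresholds, a replicate block, and fits that left out single arrays, wild type 3 with TTP 3, or the 4 arrays numbered 3. The labels number the replicates 1 to 3 in each group. The same-numbered TTP and wild-type arrays deviated together from their group means (correlations 0.498, 0.664 and 0.821). TTP 3 and wild type 3 share a Myc signal against their labels. In groups of 3, such a shared deviation also raises the correlations of the other numbers. Arrays of different numbers were not compared, so these correlations cannot decide whether the numbers pair the groups. The block was fitted over all 4 groups. TTP over wild type called 0 genes with it and without it.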

Additional observations from a re-analysis of the deposited data

How the results depend on the processing

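In Myc over wild type 1135 genes and 2 members were called. Both counts were 0 with no filter on low values, quantile normalization, a common median, no intensity trend, the unmoderated model, the probe set of largest SD, the replicate block and an adjusted p under 0.01. Testing every probe set separately gave 1 gene and 0 members. The fit on the 2 groups compared gave 2110 genes. Without wild type 3 and TTP 3 the counts were 4965 and 5. They were 5626 and 6 without the 4 arrays numbered 3. Leaving out 1 array at a time gave 0 to 3609 genes and 0 to 5 members. Without wild type 3, 5 members and 3565 of 10287 genes were called, and without TTP 3, 4 members and 3609 genes. Without TTP 2 there were 4 members and 1713 genes, and without Myc 3, 2 members and 2151 genes. Leaving out any other single array gave 0 members and 0 genes.

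In the 6 against 6 arrays 4449 genes (1920 higher, 2529 lower) and 2 members were called. The split was 3129 higher and 2270 lower after quantile normalization and 2667 and 2467 with a common median. Leaving out 1 array gave 2151 to 5806 genes and 1 to 5 members. Without the 4 arrays numbered 3, 6488 of 10287 genes and 5 members were called. Without TTP 3 and wild type 3 the counts were 6283 genes and 5 members. At an adjusted p under 0.01, 0 genes and 0 members were called.

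The other comparisons called 0 genes and 0 members. TTP over wild type gave 1 gene without the 4 arrays numbered 3, without TTP 3 and wild type 3, and by single probe sets, and 0 to 1 with 1 array left out. Double transgenic over Myc gave 1 gene with a common median, 16 with the unmoderated model, 1 without wild type 3 and TTP 3, 0 to 28 with 1 array left out, and 1514 genes and 2 members without the 4 arrays numbered 3. Double transgenic over TTP gave 1 gene without the trend, 5 with the unmoderated model, 4682 genes and 4 members without the arrays numbered 3, 4412 and 4 without TTP 3 and wild type 3, and 0 to 3951 genes and 0 to 3 members with 1 array left out (3951 and 3 without TTP 3, 1907 and 1 without wild type 3). The interaction gave 235 genes and 1 member without the arrays numbered 3, and 1 by single probe sets.

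With the replicate block Ddit3 was -1.41 ± 0.40 (adjusted p = 0.0637 by limma) and Herpud1 -1.05 ± 0.27 (adjusted p = 0.0637) in Myc over wild type, and in the 6 against 6 arrays Sesn2 joined the 2 called members (adjusted p = 0.0255). The block changed no other member's call. Same-numbered Myc and wild-type arrays had correlations of -0.434, -0.281 and -0.630, and their numbers were not taken as pairs. No tested member reversed a call under any alternative. The cause of these changes was not tested; leaving out an array also removes data. With 3 arrays a group, members near the floor (Sesn2) or below it (Trib3, Chac1, Atf3) can show only large differences.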
